A study of Mus musculus with 8 samples.

Results

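The glutathione transferases and the genes of the NRF2 pathway were examined in whole livers of male mice. The set holds every gene whose symbol is Gst followed by a class letter and a number (22 genes), the 3 microsomal transferases Mgst1 to Mgst3, and 17 genes of NRF2 signalling, glutathione and thioredoxin chemistry, NADPH supply and detoxification. All 42 were found among the 56953 gene identifiers of each library. 38 had enough counts to be tested. The other 4 were Gstt4, with no count in any library, and Gsto2, Mgst2 and Slc7a11, with at most 17, 18 and 32 counts in any library.

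Polyadenylated RNA was sequenced from 8 liver samples, 4 labelled control, with the genotype given as WT, and 4 labelled HSC-PCK1-KO. In the latter, Pck1, which encodes the cytosolic phosphoenolpyruvate carboxykinase of gluconeogenesis, was knocked out in hepatic stellate cells, which store vitamin A and form scar matrix after injury. Both groups were kept for 8 weeks on CDHFD, a high-fat diet without choline on which the liver becomes fatty and fibrotic, and all libraries carry the same batch label. The labels used here do not name the promoter that drove the deletion, whether the controls carried a Cre transgene or unrecombined alleles, the strain or the age. No normal-diet group was analysed here, so every value below is a level in diseased liver.

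Glutathione transferases join the thiol of glutathione to reactive chemicals and to products of lipid peroxidation. In liver most of them are hepatocyte enzymes. The transcription factor NRF2, encoded by Nfe2l2, is held in the cytosol and sent for degradation by KEAP1. When electrophiles or oxidants modify KEAP1, NRF2 enters the nucleus, pairs with a small MAF protein and binds antioxidant response elements near genes that make glutathione, recycle thioredoxin, supply NADPH and conjugate toxins. In a fatty liver these genes stand between lipid peroxides and cell damage.

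Totals ranged from 44695439 to 49477255 counts per library. The hepatocyte genes, such as Alb, summed to between 86600 and 108200 CPM (counts scaled to library size) in control and between 85380 and 103500 CPM in the HSC-PCK1-KO livers, and none of the 10 was at 0, so the labelled tissue carried its markers. Pck1 itself stood at 1148 ± 616 CPM in the controls and 668 ± 263 CPM in the HSC-PCK1-KO livers (SD, n = 4 each), with overlapping groups. Hepatocytes also express it, and a loss limited to stellate cells cannot be checked from that level. In whole tissue, fewer cells of a type and less RNA per cell cannot be told apart. This holds for every value that follows.

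The set spanned a very wide range of levels, led by a microsomal enzyme. Apart from shares of the family, levels of different genes are compared here only in CPM per kilobase of annotated exon. The length joins all annotated exons of a gene, 4344 bases for Gsta3 and 1266 for Gsta4. Genes with long annotated exons that are little used could thus be placed too low. On that scale Mgst1, a membrane transferase and peroxidase of the endoplasmic reticulum and mitochondria, came first at 1968 in control livers. Gstm1 followed at 715, Gstp1 at 560, Gsta3 at 382 and Gstt1 at 224. Txn1 was the highest gene outside the transferases at 223, with Ephx1 next at 203. Nqo1, a quinone reductase often used as an NRF2 readout, stood at only 5.73, G6pdx at 2.34 and the exporter gene Abcc1 at 0.187. Gstt4 had 0 counts in each library, which allows at most 0.0707 CPM in the shallowest of them, a limit that covers counting error only. Together the 25 transferase genes took 0.892% to 0.999% of all counts in control and 0.969% to 1.12% in HSC-PCK1-KO libraries, ranges that overlap, and Mgst1 alone supplied 39.5% to 44.8% of the family's CPM.

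**Figure D1:**
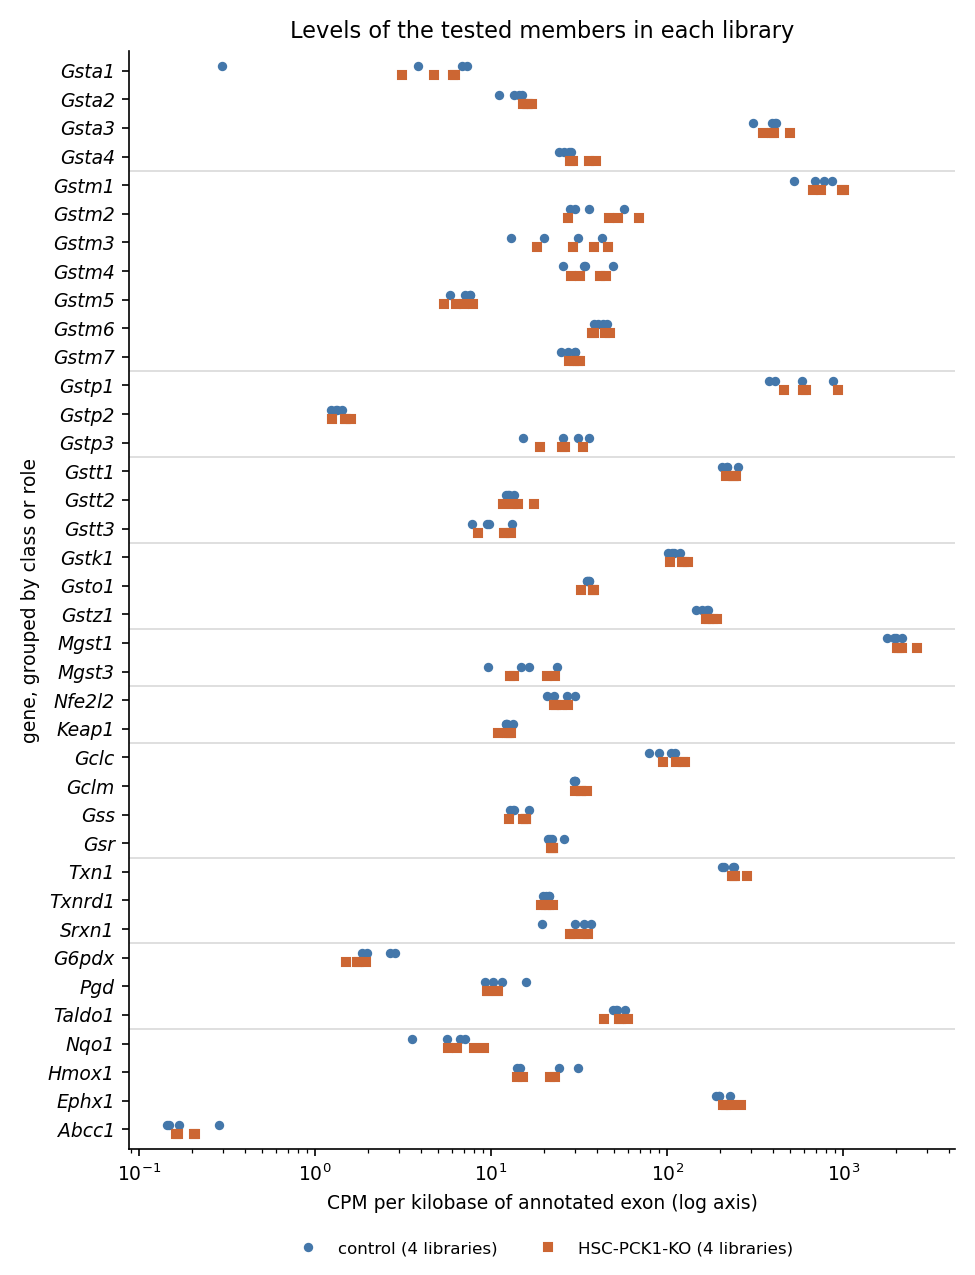
Level of each of the 38 tested genes in CPM per kilobase of annotated exon (log axis), 1 point per library, with horizontal lines between classes and roles. Mgst1 stands highest and Abcc1 lowest, and control replicate 2 stands far to the left for Gsta1, at 0.283 CPM before division by length.

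No gene of the set passed the test between genotypes, and none did among all genes. edgeR's quasi-likelihood test with Benjamini-Hochberg adjustment called 0 of 15669 genes (0%) at an adjusted p of 0.05, and 0 of the 38 members, each with an adjusted p of 0.9998. At an unadjusted p under 0.05 there were 3 members, 2 higher in the HSC-PCK1-KO livers and 1 lower, where all genes gave 2.36% in edgeR. The 2 higher were Gsta2 and Gsta4, where 1.02% of all genes lay at such a p on that side, and the lower was G6pdx, against 1.34% of all genes. DESeq2 and limma-voom also called 0 members, each with 3 at an unadjusted p under 0.05. Of all 15669 genes, 366 in DESeq2 and 371 in limma-voom lay at such a p. Only Gsta2 had groups that did not overlap, against a background of 0.721% of all genes separated in that direction.

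The estimates of the transferases leaned to one side by small amounts. Of the 22 tested, 19 had a log2 fold change (HSC-PCK1-KO minus control) above 0, with a median of 0.14, while 48.2% of all genes were above 0 and their median was -0.0055. Among the other 16 tested members, 9 were above 0 and the median was 0.0096. The count of 19 was between 16 and 21 with 1 library left out, the 16 being without control replicate 2. Members were measured in the same livers and several share a regulator, so these counts are descriptions and not repeated tests.

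The uncertainty of the members was close to that of all genes tested. The 95% interval lay inside a 2-fold change either way for 35 of the 38 members, against 86.7% of all genes, and inside a 1.5-fold change for 28 of 38, against 66.8%. The intervals that reached past 2-fold were those of Gsta1, Gstm2 and Gstm3. The median standard error (SE) of a member's log2 fold change was 0.12, against 0.13 over all genes tested.

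**Figure D2:**
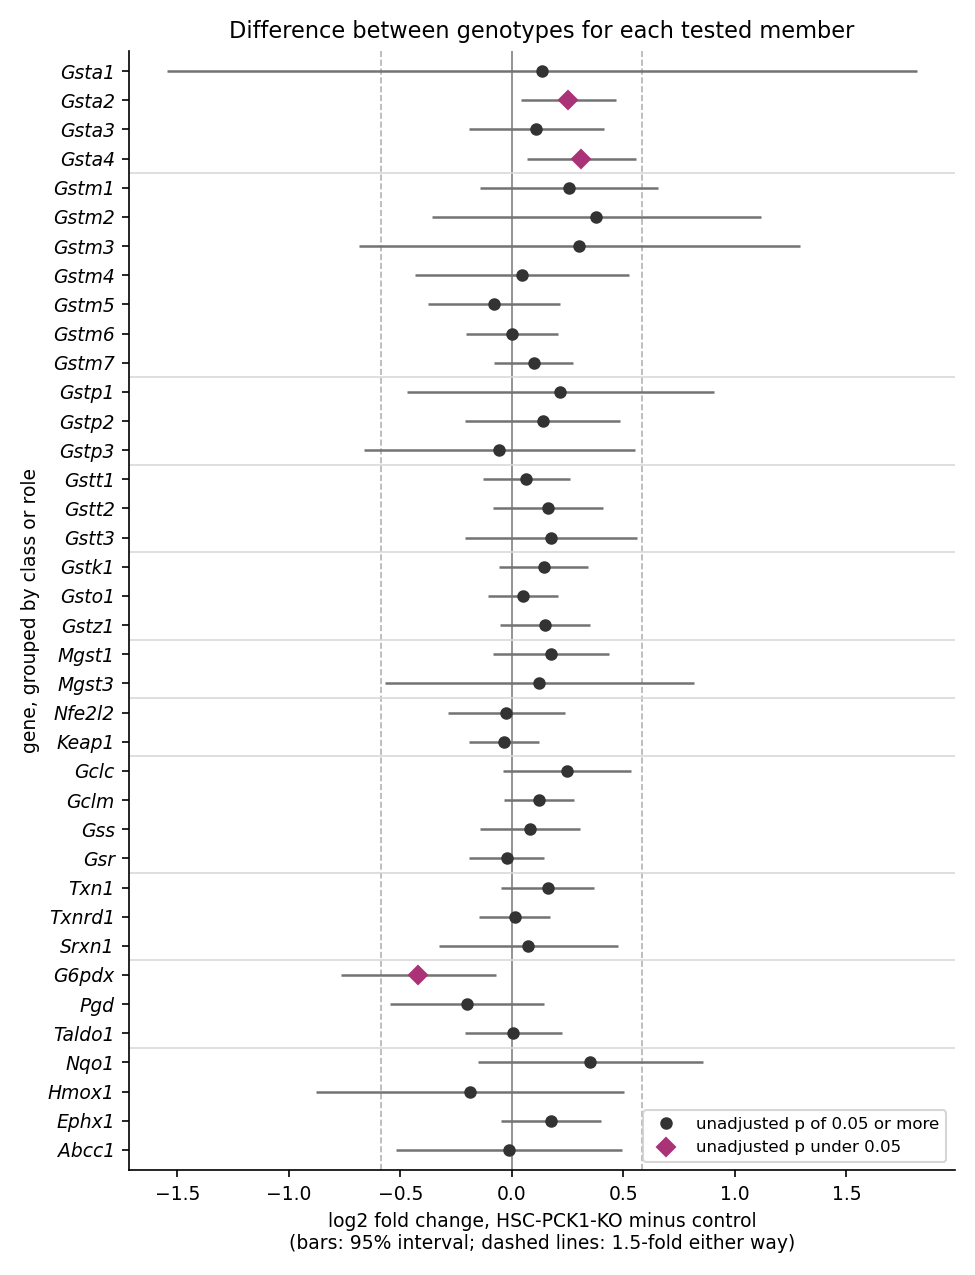
Log2 fold change of each tested gene (HSC-PCK1-KO minus control) with its 95% interval derived from edgeR's F statistic, with dashed lines at a 1.5-fold change either way. Diamonds mark Gsta2, Gsta4 and G6pdx, the 3 members with an unadjusted p under 0.05, and the widest bar is that of Gsta1, from -1.55 to 1.82.

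The alpha class, whose enzymes reduce lipid hydroperoxides and conjugate lipid aldehydes, held both of the higher members. Gsta2 stood at 17.75, 13.08, 15.99 and 16.99 CPM in control replicates 1 to 4, and at 18.94, 19.18, 17.94 and 19.99 CPM in the HSC-PCK1-KO replicates 1 to 4. The lowest HSC-PCK1-KO library thus lay just above the highest control library, and control replicate 2 was the lowest of all. Its log2 fold change was 0.25 (SE 0.096), with an unadjusted p of 0.0249 in edgeR, which became 0.0522 when control replicate 2 was left out and 0.0588 when HSC-PCK1-KO replicate 4 was. With any 1 library left out the log2 fold change lay between 0.17 and 0.31. Of the 100-base windows of Gsta2 transcripts, 28.4% also occur in other genes, 18.2% in Gsta1, which was lowest in the same control replicate 2.

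Gsta4, the alpha enzyme that acts best on 4-hydroxynonenal, an aldehyde of lipid peroxidation, stood at 35.9, 33.1, 30.9 and 35.2 CPM in control livers. In HSC-PCK1-KO livers it stood at 36.8, 49.9, 45.3 and 35.6 CPM. Replicates 1, 2 and 3 of HSC-PCK1-KO were above all controls, replicate 1 by less than 1 CPM, while replicate 4 lay just below the highest control. The log2 fold change was 0.31 (SE 0.11), with an unadjusted p of 0.0179 in edgeR, which became 0.0572 without replicate 2 of the latter group and 0.0515 without its replicate 3. Gsta3, the main alpha transferase of these livers, had 1659 ± 220 CPM in the controls and 1790 ± 273 CPM in the HSC-PCK1-KO livers (SD, n = 4 each), a difference smaller than the spread. Its log2 fold change of 0.11 was 0.0023 when HSC-PCK1-KO replicate 1 was left out.

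Gsta1 varied more between libraries than any other tested member. It had 6.57, 0.283, 3.65 and 6.97 CPM in control replicates 1 to 4 and 5.83, 5.95, 4.53 and 2.99 CPM in the HSC-PCK1-KO replicates 1 to 4. Control replicate 2 held 12 counts, where the other 7 libraries held between 147 and 364. The log2 fold change was 0.14 (SE 0.72), and it was -0.25 without control replicate 2. The value is uncertain for a second reason: 80.6% of the 100-base windows of Gsta1 transcripts also occur in transcripts of other genes, most of them in the predicted gene Gm3776. That gene, looked up after Gsta1 was seen, showed the same low library, with 7 counts in control replicate 2 and 82 to 225 in the others. The first 90 coding bases of both are shown because they illustrate how little separates the copies, with the base that differs in capitals. Over their 669 coding bases the copies differ at 2.
Gsta1: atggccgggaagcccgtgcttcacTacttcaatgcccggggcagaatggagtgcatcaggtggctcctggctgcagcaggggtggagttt
Gm3776: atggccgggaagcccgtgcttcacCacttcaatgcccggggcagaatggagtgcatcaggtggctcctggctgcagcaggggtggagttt

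The mu class showed no difference beyond its spread, but some of its genes moved widely from liver to liver. The enzymes of this class conjugate epoxides and other electrophiles. Gstm1, the most abundant, stood at 1274, 771, 1017 and 1150 CPM in the controls and 1456, 1491, 1098 and 991 CPM in the HSC-PCK1-KO replicates 1 to 4. The groups overlapped broadly and control replicate 2 was the lowest library. Its log2 fold change was 0.26 (SE 0.18), and 0.13 without that library. Gstm3 ranged further, at 55.9, 17.1, 26.1 and 40.9 CPM in the controls and 38.5, 60.3, 50.3 and 23.8 CPM in the HSC-PCK1-KO livers. Its highest library had 3.53 times the level of its lowest, and its log2 fold change of 0.30 carried an SE of 0.42. With 1 library left out it ranged from 0.077 (control replicate 2) to 0.62 (control replicate 1). Gstm2 had the highest estimate above 0 of the set at 0.38 (SE 0.32), from 63.4 ± 22.0 CPM in the controls and 82.4 ± 29.2 CPM in the HSC-PCK1-KO livers (SD, n = 4 each). It was 0.16 when HSC-PCK1-KO replicate 1 was left out and 0.64 when control replicate 1 was. When control replicate 2 was left out it was 0.26, below the 0.51 of Gstp1. Gsta1 stood above Gstm2 in limma-voom (0.57 against 0.39) and with the replicate block (0.45 against 0.36). Other members also exceeded Gstm2 with some other libraries left out, as Gsta4 did without HSC-PCK1-KO replicate 1 (0.37 against 0.16). By contrast Gstm6 varied only 1.26-fold over all 8 libraries, at 83.6 ± 6.37 and 83.6 ± 9.40 CPM. Gstm4, Gstm5 and Gstm7 had log2 fold changes of 0.046, -0.080 and 0.098.

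In the pi class a single gene carried nearly all of the signal. Gstp1, an abundant hepatocyte transferase that also binds stress kinases, stood at 584, 1349, 904 and 633 CPM in the controls and 717, 953, 1451 and 910 CPM in the HSC-PCK1-KO replicates 1 to 4. Its highest libraries were control replicate 2 and HSC-PCK1-KO replicate 3, so both groups covered nearly the same range. The log2 fold change was 0.22 (SE 0.30), and it was -0.012 without HSC-PCK1-KO replicate 3. Control replicate 2, where Gstp1 was high, was the lowest library for Gsta1, Gstm1, Gstm3, Gstm4, Gstp3 and Mgst3. Gstp3 stood at 32.5, 13.8, 28.2 and 23.2 CPM in the controls and 30.1, 23.8, 17.3 and 23.0 CPM in the HSC-PCK1-KO livers. Its 2 lowest libraries were thus the 2 in which Gstp1 was highest, a pattern noticed in the values and not tested.

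Gstp2 lies beside Gstp1 in the genome and is nearly the same sequence, yet it was counted at only 1.47 ± 0.091 CPM in the controls and 1.62 ± 0.17 CPM in the HSC-PCK1-KO livers (SD, n = 4 per group). The coding sequences, of 630 bases each without the stop codon, differ at 12 positions, an identity of 98.1%, and 46.9% of the 100-base windows of Gstp2 transcripts occur in other genes. How reads matching both copies were counted is not given in the sources used here, so the split between them is uncertain. The first 90 coding bases are shown with the 6 differing bases in capitals, since these are the positions by which a read from this stretch can be assigned.
Gstp1: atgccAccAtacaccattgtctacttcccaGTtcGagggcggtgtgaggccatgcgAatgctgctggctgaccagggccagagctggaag
Gstp2: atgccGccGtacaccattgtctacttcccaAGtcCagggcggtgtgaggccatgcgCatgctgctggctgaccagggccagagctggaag

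Apart from Gstt3, the tested genes of the theta, kappa, omega and zeta classes had narrow intervals. Gstt1, which acts on small halogenated compounds, had 343 ± 30.8 CPM in the controls and 358 ± 19.9 CPM in the HSC-PCK1-KO livers (SD, n = 4 each). Gstt2 and Gstt3 had log2 fold changes of 0.16 and 0.18, the latter with a 95% interval from -0.21 to 0.56. Gstz1, which isomerises maleylacetoacetate in tyrosine breakdown, had 817 ± 61.1 and 907 ± 56.8 CPM, a log2 fold change of 0.15 (95% interval -0.051 to 0.35). Gstk1, the mitochondrial and peroxisomal transferase, had 0.14, and Gsto1, a thiol transferase, 0.049. All 6 intervals lay inside a 1.5-fold change.

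Of the microsomal enzymes, Mgst1 stood at 3892, 4037, 4357 and 3560 CPM in the controls and 5304, 4359, 4175 and 4056 CPM in the HSC-PCK1-KO replicates 1 to 4. HSC-PCK1-KO replicate 1 was the highest library, and the others lay within or near the range of the controls. The log2 fold change was 0.18 (SE 0.12), and 0.082 without that library. Mgst3, which can make leukotriene C4, had 17.7 ± 6.45 and 19.3 ± 5.67 CPM (SD, n = 4 each).

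**Figure D3:**
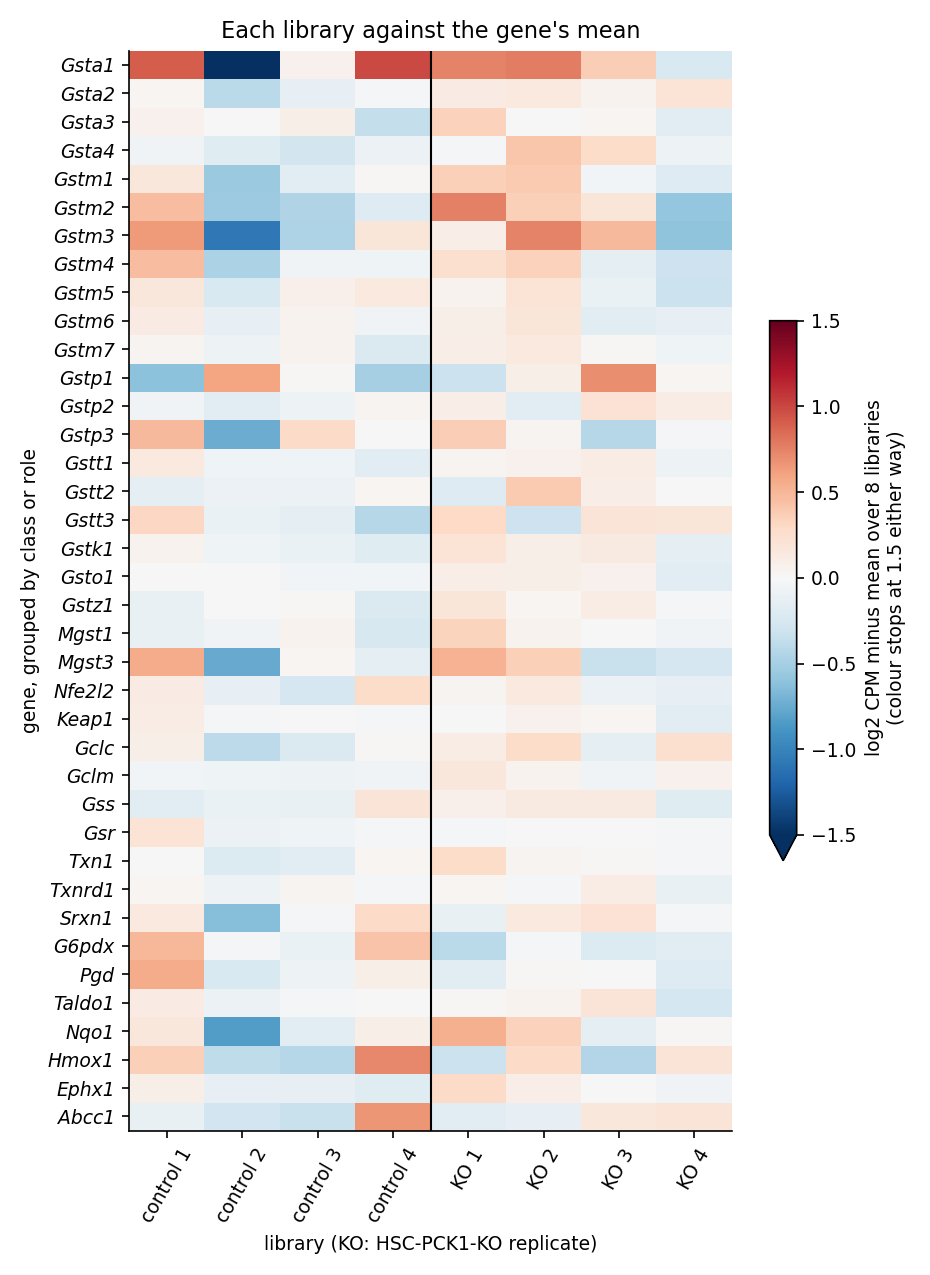
Each tested gene in each library as log2 CPM minus the gene's mean over the 8 libraries, red above and blue below, with KO for HSC-PCK1-KO. Control replicate 2 is blue for Gsta1, the mu class genes Gstm1 to Gstm4, Gstp3, Mgst3, Srxn1 and Nqo1 and red for Gstp1.

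The transcripts of the NRF2 switch itself had estimates close to 0. Nfe2l2 had 102, 85.9, 78.9 and 114 CPM in the controls and 96.6, 104, 88.3 and 86.4 CPM in the HSC-PCK1-KO livers, with the controls holding both the lowest and the highest library. Its log2 fold change was -0.024, and the 95% interval ran from -0.28 to 0.24. Keap1 had 58.7 ± 2.76 CPM in the controls and 57.4 ± 3.98 CPM in the HSC-PCK1-KO livers (SD, n = 4 each). NRF2 is controlled largely by the stability of the protein, which RNA counts do not measure.

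Promoter windows were searched for the core of the antioxidant response element. Of the 42 genes, 36 were matched to RefSeq (build GRCm38.p6), Abcc1, Gclc, Gsr, Gsta4, Gstt2 and Hmox1 being the others. The motif TGACNNNGC was sought on both strands from 250 bases before to 50 after each annotated start, and overlaps with other motifs were allowed. It was present in 1 or more windows of 10 of the 36 genes (27.8%), against 14.0% of all 27025 genes. Counted by window, it was in 20.8% of the 48 windows of members and 12.4% of all 32851. Many members were listed as NRF2 pathway genes, so these shares are no independent evidence about the set. The 10 were G6pdx, Gclm, Gsta3, Gstm5, Gstm7, Mgst1, Nfe2l2, Pgd, Srxn1 and Txnrd1. Of these, 6 had a log2 fold change above 0, with a median of 0.044. Of the 22 tested genes without the motif in the window, 19 were above 0, with a median of 0.14. A match describes these letters and is not a shown binding site. The stretches of 6 of them are printed on the strand that reads TGACNNNGC, with the motif in capitals, to show the letters around it in a glutathione synthesis gene, a thioredoxin reductase gene, the most abundant alpha and microsomal transferases, a gene with an estimate below 0 and the NRF2 gene.
Gclm, chr3:122245397-122245457, minus strand: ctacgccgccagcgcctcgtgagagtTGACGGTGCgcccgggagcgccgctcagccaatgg
Txnrd1, chr10:82859088-82859148, minus strand: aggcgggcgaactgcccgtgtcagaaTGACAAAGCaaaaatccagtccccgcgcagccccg
Gsta3, chr1:21240438-21240498, plus strand: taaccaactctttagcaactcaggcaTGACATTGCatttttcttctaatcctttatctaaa
Mgst1, chr6:138140445-138140505, minus strand: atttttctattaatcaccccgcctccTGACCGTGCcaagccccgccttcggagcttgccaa
G6pdx, chrX:74428903-74428963, plus strand: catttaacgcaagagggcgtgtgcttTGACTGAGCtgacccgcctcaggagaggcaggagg
Nfe2l2, chr2:75704869-75704913, minus strand: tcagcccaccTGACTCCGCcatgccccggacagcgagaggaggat

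Of the 4 glutathione synthesis and recycling genes tested, none passed and 3 had estimates above 0. Gclc, the catalytic subunit of glutamate-cysteine ligase and the rate-limiting step, stood at 417, 297, 338 and 395 CPM in the controls and 424, 474, 357 and 462 CPM in the HSC-PCK1-KO replicates 1 to 4. Of the HSC-PCK1-KO libraries 3 lay above every control and replicate 3 lay among them. The log2 fold change was 0.25 (SE 0.13), with an unadjusted p of 0.0825 in edgeR. That p was 0.0405 with no filter on low counts, 0.0371 when control replicate 1 was left out and 0.0299 when HSC-PCK1-KO replicate 3 was. With any other library left out it stayed above 0.05, from 0.0644 (control replicate 4) to 0.205 (control replicate 2). The log2 fold change was 0.16 without control replicate 2. Gclm, the modifier subunit, was very even in control livers at 189, 187, 185 and 188 CPM, and stood at 220, 203, 188 and 203 CPM in the HSC-PCK1-KO livers. A single HSC-PCK1-KO library, replicate 3, kept the groups from separating, and the log2 fold change was 0.12 (SE 0.071). Gss, glutathione synthetase, and Gsr, glutathione reductase, had 0.082 and -0.024. Slc7a11, the cystine carrier, had from 1 to 32 counts per library and was not tested.

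The 3 thioredoxin genes had estimates just above 0, and none passed. Txn1, thioredoxin, had 235 ± 19.3 CPM in the controls and 262 ± 24.8 CPM in the HSC-PCK1-KO livers (SD, n = 4 each), a log2 fold change of 0.16 (SE 0.093). Txnrd1, its reductase and a selenoprotein, had 147 ± 5.45 and 148 ± 9.36 CPM, and a 95% interval from -0.15 to 0.17. Srxn1, sulfiredoxin, which repairs overoxidised peroxiredoxins, stood at 94.9, 55.0, 85.0 and 105 CPM in the controls and 79.1, 94.9, 99.9 and 83.8 CPM in the HSC-PCK1-KO livers. Control replicate 2 was again the low library, and without it the log2 fold change of 0.074 was -0.086.

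In NADPH supply, 2 of 3 genes had estimates below 0. G6pdx, the glucose-6-phosphate dehydrogenase that opens the pentose phosphate pathway, stood at 8.72, 6.06, 5.73 and 8.27 CPM in the controls and 4.64, 6.03, 5.34 and 5.50 CPM in the HSC-PCK1-KO replicates 1 to 4. Control replicates 1 and 4 stood above the rest, while control replicates 2 and 3 lay in or near the HSC-PCK1-KO range, so the groups overlapped. Its log2 fold change was -0.42 (SE 0.16) with an unadjusted p of 0.0226 in edgeR. Leaving out control replicate 1 gave a p of 0.0773, control replicate 4 gave 0.0654 and HSC-PCK1-KO replicate 1 gave 0.0641. Part of the transcript (7.34% of its 100-base windows) is shared with the neighbouring Ikbkg. Pgd, the next dehydrogenase of the pathway, stood at 102, 59.3, 65.9 and 74.1 CPM in the controls and 61.7, 70.3, 69.8 and 61.0 CPM in the HSC-PCK1-KO livers. Control replicate 1 was its highest library, and the log2 fold change of -0.20 (SE 0.15) was -0.016 without it. Taldo1, transaldolase of the non-oxidative arm, had a log2 fold change of 0.0059.

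Among the detoxification genes, Nqo1 stood at 10.99, 5.49, 8.68 and 10.4 CPM in the controls and 14.2, 12.5, 8.85 and 9.95 CPM in the HSC-PCK1-KO replicates 1 to 4. HSC-PCK1-KO replicates 1 and 2 were above all controls and replicates 3 and 4 among them. Its log2 fold change was 0.35 (SE 0.22), and 0.18 when control replicate 2 was left out. Hmox1, heme oxygenase, which is also made by macrophages, stood at 42.6, 25.4, 24.6 and 54.9 CPM in the controls and 26.6, 40.6, 24.5 and 38.0 CPM in the HSC-PCK1-KO livers. Each genotype held 2 libraries near 25 CPM and 2 well above, and the log2 fold change of -0.19 (SE 0.30) was 0.072 without control replicate 4. Ephx1, microsomal epoxide hydrolase, had 396 ± 33.2 and 448 ± 48.2 CPM (SD, n = 4 each), a log2 fold change of 0.18 (SE 0.10) that was 0.10 when HSC-PCK1-KO replicate 1 was left out. Abcc1, which exports glutathione conjugates, stood at 4.32 CPM in control replicate 4 and between 2.18 and 3.13 CPM in the other 7 libraries.

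Some members followed each other from liver to liver. 7 relations over log2 CPM of the 8 libraries were computed, with exact two-sided permutation p-values and Benjamini-Hochberg adjustment over the 7. The 7 were chosen with earlier results of these data known. The adjustment does not cover that choice, so the adjusted p-values describe these pairs only. Nqo1 and Gclc had Pearson's r = 0.847 (exact permutation p = 0.00637, adjusted 0.0223) and Spearman's rho = 0.810 (exact permutation p = 0.0218, adjusted 0.152). Without the 2 libraries farthest from the median of Nqo1, control replicate 2 and HSC-PCK1-KO replicate 1, r was 0.832, and over deviations from the group means it was 0.793. With control replicate 2 alone left out, r was 0.678 (exact permutation, adjusted p = 0.140). The adjusted p was also above 0.05 when control replicate 3 (0.0722) or HSC-PCK1-KO replicate 2 (0.0674) was left out, with r at 0.856 and 0.83. Nqo1 and Gsta2 had r = 0.855 (exact permutation p = 0.0136, adjusted 0.0317) and rho = 0.619 (exact permutation p = 0.115, adjusted 0.201). Without the 2 farthest libraries r was 0.498, and over deviations from the group means it was 0.830. That relation rested on control replicate 2, since r was 0.529 with it alone left out (exact permutation, adjusted p = 0.261) and 0.873 with HSC-PCK1-KO replicate 1 alone left out (exact permutation, adjusted p = 0.0396). When control replicate 3 or HSC-PCK1-KO replicate 2 was left out, the adjusted p was 0.0733 and 0.0736. Nqo1 and Gstm3 had r = 0.704 (exact permutation p = 0.0432, adjusted 0.0605), rho = 0.619 (exact permutation p = 0.115, adjusted 0.201), and r = 0.581 without the 2 farthest. Over deviations from the group means r was 0.67. The relation of Nqo1 and Gstm3 passed when HSC-PCK1-KO replicate 1 (adjusted 0.0389) or 3 (adjusted 0.0413) was left out. No Spearman value passed after adjustment.

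Hmox1 was set beside 12 genes of recruited macrophages, of which 10 had a log2 fold change below 0 and none passed. The libraries' mean z scores over those genes were 0.34, -1.31, -0.46 and 1.44 in control and -0.58, 0.18, -0.027 and 0.41 in the HSC-PCK1-KO replicates 1 to 4. Hmox1 and this score had r = 0.860 (exact permutation p = 0.00449, adjusted 0.0223), rho = 0.714 (exact permutation p = 0.0576, adjusted 0.201), r = 0.820 without control replicates 2 and 4, and r = 0.871 over deviations from the group means. For Hmox1 the libraries formed 2 sets of 4, from 24.5 to 26.6 CPM and from 38.0 to 54.9 CPM, and with 4 libraries in each the relation was not computed within a set. The adjusted p was above 0.05 when control replicate 3 (0.0528), control replicate 4 (0.0736, r = 0.744) or HSC-PCK1-KO replicate 2 (0.0674) was left out. The macrophage genes summed to between 57.3 and 176 CPM in the controls and between 90.5 and 115 CPM in the HSC-PCK1-KO livers, and none of the 12 was at 0. Trem2, Gpnmb and Cd68 were highest in control replicate 4, at 4.48, 16.8 and 31.1 CPM, the library where Hmox1 was also highest. Their part in the level of Hmox1 was not tested. G6pdx had r = 0.580 with the same score (exact permutation p = 0.137, adjusted 0.137), rho = 0.381 (exact permutation p = 0.360, adjusted 0.360) and r = 0.594 without the 2 farthest libraries. Over deviations from the group means r was 0.795.

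The pentose phosphate genes were set beside 12 genes of lipogenesis, which consumes NADPH. Mean z scores over those genes were 1.54, -0.099, 0.13 and -0.30 in control and -0.52, 0.043, -0.27 and -0.52 in the HSC-PCK1-KO replicates 1 to 4, with control replicate 1 far above the rest. Pgd and this score had r = 0.878 (exact permutation p = 0.0343, adjusted 0.0599), rho = 0.476 (exact permutation p = 0.243, adjusted 0.284) and r = 0.0729 without control replicate 1 and HSC-PCK1-KO replicate 4. G6pdx and the score had r = 0.677 (exact permutation p = 0.0621, adjusted 0.0725), rho = 0.571 (exact permutation p = 0.151, adjusted 0.212) and r = 0.198 without the same pair. Over deviations from the group means r was 0.864 for Pgd and 0.524 for G6pdx. Both relations rested on control replicate 1: with it alone left out, r was 0.102 for Pgd and 0.151 for G6pdx, and with HSC-PCK1-KO replicate 4 alone left out, r was 0.86 and 0.656. When control replicate 4 was left out, both passed, with r = 0.93 for Pgd and 0.95 for G6pdx (exact permutation, adjusted p = 0.0469 and 0.0389). Of the 12 lipogenesis genes, 11 had a log2 fold change below 0 and none passed. Acss2 and Acly, named for the smallest p of the list, had log2 fold changes of -0.66 (SE 0.23) and -0.62 (SE 0.23). Their groups overlapped. Fasn had -0.83 (SE 0.46), and its highest library was control replicate 1 at 1886 CPM. Acly, which makes cytosolic acetyl-CoA, stood at 632, 442, 378 and 296 CPM in the controls and 215, 282, 354 and 288 CPM in the HSC-PCK1-KO livers. Me1, the malic enzyme that also makes NADPH, had its highest level, 521 CPM, in control replicate 1.

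**Figure D4:**
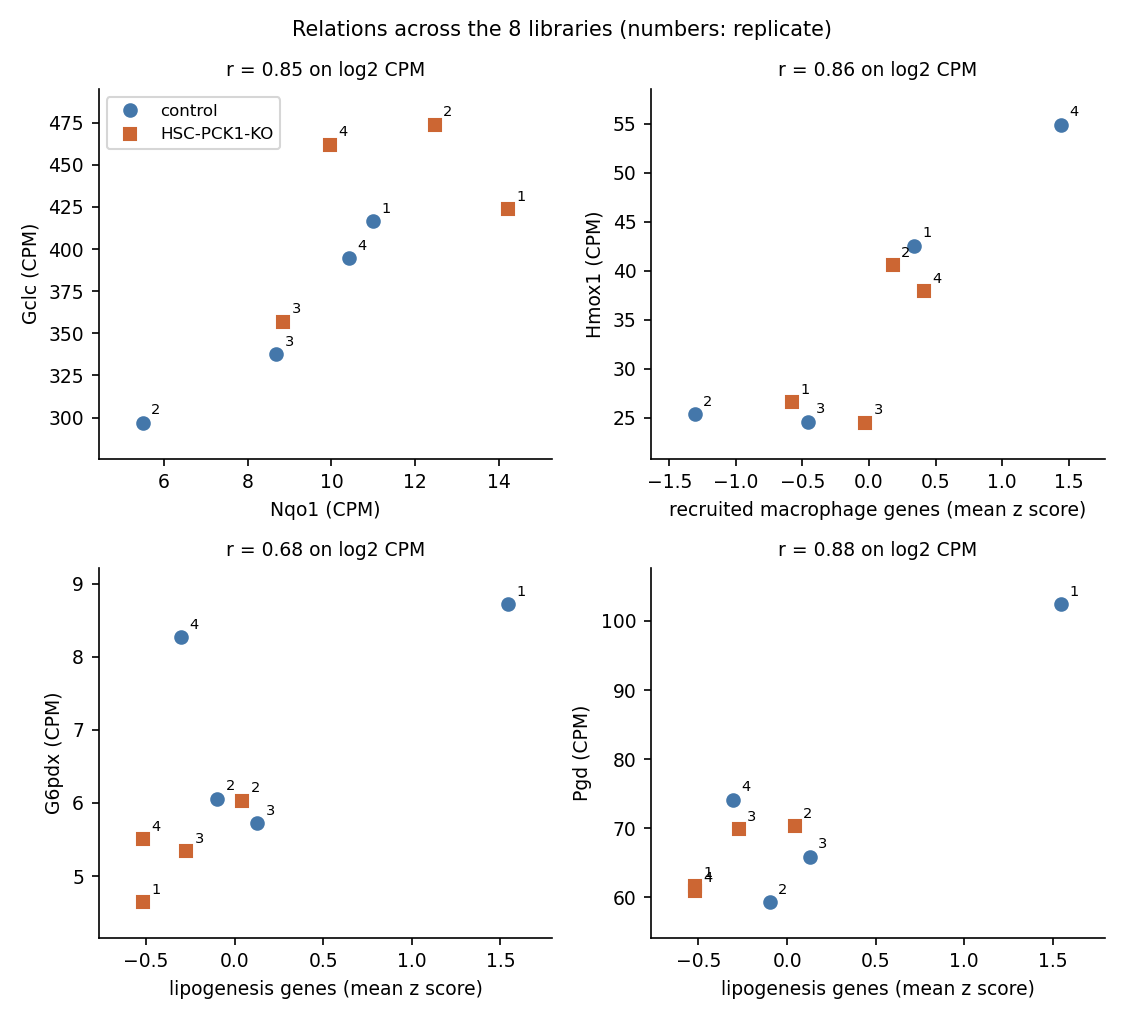
Pairs of measures across the 8 libraries, in CPM or as mean z scores of a gene list, with the replicate number beside each point. Nqo1 and Gclc are spread along a line (r = 0.85), Hmox1 splits into 2 sets of 4 libraries (r = 0.86), and control replicate 1 stands alone at the right of both lipogenesis panels (r = 0.68 and 0.88).

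Among other genes of the pathway, none passed edgeR's test in any of the lists that follow. Of 15 peroxidases, peroxiredoxins, catalase and superoxide dismutases tested, 12 were above 0 with a median log2 fold change of 0.066. Sod3, an extracellular superoxide dismutase, lay lower, with 39.4 ± 1.64 CPM in the controls and 34.8 ± 1.28 CPM in the HSC-PCK1-KO livers (SD, n = 4 each) and no overlap, where 0.811% of all genes were separated in that direction. Gpx8, a peroxidase of the endoplasmic reticulum, had -0.50 (SE 0.21). Of 12 thioredoxin and glutaredoxin partners 10 were above 0 (median 0.028), with Msra at 0.13. Txnrd3 was at -0.16 with no overlap between groups, against the same 0.811% of all genes. Of 15 genes of glutathione breakdown and transport 7 were above 0 (median -0.047), with Ggt6 at 0.24 and Anpep at -0.19. Of 14 NRF2 partners and regulators 7 were above 0 (median -0.0016), with Maff at 0.43 and Bach2 at -0.38.

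Of 21 further NRF2 target enzymes and exporters 17 were above 0, with a median of 0.091. Osgin1, an oxidative stress response gene, stood at 146, 152, 172 and 182 CPM in the controls and 196, 312, 188 and 209 CPM in the HSC-PCK1-KO livers. The groups did not overlap, where 0.721% of all genes were separated in that direction. HSC-PCK1-KO replicate 2 was far above the rest, and the log2 fold change was 0.47 (SE 0.16). Blvrb, biliverdin reductase B, also had groups apart in that direction, with a log2 fold change of 0.42 (SE 0.080). DESeq2 called Blvrb, among 6 genes in all, none of them a member of the set. Osgin1 and Blvrb were named for the smallest p of their list, so their separation is no independent evidence. Of 10 further genes of NADPH supply and the pentose phosphate pathway 4 were above 0 (median -0.041), with Idh2 at 0.19. Rpia, a ribose phosphate isomerase that makes no NADPH itself, had -0.53 (SE 0.18). Its groups did not overlap, where 0.811% of all genes were separated in that direction.

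Markers of the zones and cells that could shift these levels were also read. Pericentral hepatocytes, where many transferases are strongest, were represented by 9 genes that summed to between 9915 and 13910 CPM in the controls and between 11130 and 13830 CPM in the HSC-PCK1-KO livers, with Glul at a log2 fold change of 0.0073 and 6 of 9 above 0. The 8 periportal genes summed to between 5155 and 6979 and between 5631 and 6704 CPM. Stellate cell genes summed to between 338 and 434 and between 310 and 370 CPM, with 8 of 10 below 0. In edgeR 1 of the 10 had an unadjusted p under 0.05 on the higher side, where 1.02% of all genes lay, and 0 on the lower. Groups did not overlap for 1 of the 10, against 1.53% of all genes in either direction. The 6 mesothelial genes all had estimates below 0, with a median log2 fold change of -1.61. In edgeR none passed and 4 had an unadjusted p under 0.05, where 1.34% of all genes lay at such a p on that side. Groups did not overlap for 3, against 0.811% of all genes in that direction, and DESeq2 called 1, Upk3b. The mesothelial genes stood at 5.20 to 12.7 against 2.55 to 4.96 CPM in sum. No marker gene in these lists was at 0 in all libraries. The part of these cells in the transferase levels was not tested.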

How the data were processed

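The authors deposited raw counts, a whole number for each of 56953 mouse gene identifiers in each of 8 libraries, not normalized. Per the submitters' processing notes the build was GRCm39 and R 4.3.2 was used. Per the labels' protocols, libraries were strand-specific and paired-end. Not given in the sources used here are the aligner, the counter with its strand setting, the annotation release and how reads with multiple matches were treated. Symbols were taken by identifier from a GENCODE M21 name table, which named 52029 identifiers. Exon lengths and shared 100-base windows (both strands, all transcripts) also come from M21, on build GRCm38, so they approximate the counted gene models. Promoter letters and their coordinates are RefSeq's on GRCm38.p6. They were not placed on the counted build.

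In R 4.3.3, filterByExpr kept 15669 of 28811 genes with any count, libraries were scaled by TMM, and edgeR 4.0.16 (quasi-likelihood F-test, robust, genotype as the only term, all 8 libraries) was fitted across all genes with Benjamini-Hochberg adjustment and a threshold of 0.05. CPM uses library total and TMM factor, and log2 CPM a prior count of 2. A z score is taken per gene over the 8 libraries. The fit was repeated with upper quartile or RLE factors, without the filter, with a minimum of 1 CPM in 4 libraries, in limma-voom with sample weights (limma 3.58.1), in DESeq2 1.42.0, with a block for the replicate number, at an adjusted p of 0.1, and leaving out each library. The calculations were tested on simulated data.

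Every member was named, with the 2 genes of smallest p at a mean of at least 1 CPM from each pathway list and a few fixed readouts. Members, lists and relations were chosen with earlier results of these data known. The titles give each library a replicate number and a second number of its own, but do not say that it is a separate mouse, so the spread behind each p-value is that between samples and may be technical. Within groups, library pairs had a chi-square per degree of freedom of 44.4 to 168, far above counting noise.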

Additional observations from a re-analysis of the deposited data

Results flagged for a closer look

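In 4 of 76 groups of 4 libraries (38 members in 2 genotypes) 1 library stood far from the other 3, where chance gives about 3.8. Gss stood at 97.3 CPM in control replicate 4 and between 76.1 and 79.6 CPM in the other control libraries. Abcc1 stood at 4.325 CPM in control replicate 4, above 2.18 to 2.54 CPM in the others. Txn1 stood at 298.8 CPM in HSC-PCK1-KO replicate 1, above 244.9 to 254.1 CPM in the others. Gsto1 stood at 65.4 CPM in HSC-PCK1-KO replicate 4, below 76.4 to 78.2 CPM in the others.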

How the results depend on the processing

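With 4 libraries a group, the lack of calls by itself sets no bound on the size of a difference. The mesothelial genes, with a median log2 fold change of -1.61, did not pass in edgeR either. For those scarce genes, 0 of 6 confidence intervals lay inside a 2-fold change. Most members were bounded more tightly than those scarce genes by their own intervals, at shares near those of all genes. The intervals lay inside a 2-fold change either way for 35 of 38 members, against 86.7% of all genes. They lay inside a 1.5-fold change for 28, against 66.8%. No member was called under any alternative run. Over all genes, DESeq2 called 6 genes and leaving out 1 library called 0 to 1, the 1 being the predicted gene Gm15920 without control replicate 1. At an unadjusted p under 0.05, edgeR gave 370 genes, 686 with no filter, 279 with at least 1 CPM in 4 libraries, and 248 to 502 with 1 library left out, the fewest without HSC-PCK1-KO replicate 1 and the most without HSC-PCK1-KO replicate 3. The members' median log2 fold change of 0.12 ranged from 0.053 to 0.15 with 1 library left out. Samples with the same replicate number did not deviate together (correlations of -0.033, -0.33, -0.059 and 0.058 for numbers 1 to 4), and with the number as a block 0 genes were called, 311 at an unadjusted p under 0.05, and the members' median was 0.11. The estimates of 15 members changed sign under 1 or more alternatives. Outside the left-out libraries these were Gstm6 (0.00096 with RLE factors, 0.0038 with upper quartile factors, 0.0037 with no filter, 0.0013 with at least 1 CPM in 4 libraries and 0.00092 in DESeq2), Nfe2l2 and Abcc1 (0.033 and 0.053 in limma-voom), and Taldo1 and Abcc1 (-0.0010 and 0.035 with the replicate block). With 1 library left out the log2 fold change ranged from -0.25 to 0.45 for Gsta1, from -0.084 to 0.24 for Gstm4, from -0.17 to 0.0081 for Gstm5, from -0.062 to 0.050 for Gstm6, from -0.012 to 0.51 for Gstp1, from -0.25 to 0.11 for Gstp3, from -0.060 to 0.37 for Mgst3, from -0.10 to 0.075 for Nfe2l2, from -0.061 to 0.014 for Keap1, from -0.058 to 0.047 for Gsr, from -0.023 to 0.050 for Txnrd1, from -0.086 to 0.19 for Srxn1, from -0.060 to 0.086 for Taldo1, from -0.33 to 0.072 for Hmox1 and from -0.11 to 0.27 for Abcc1. Pearson's r with 1 library left out ranged from 0.678 to 0.924 for Nqo1 with Gclc, from 0.529 to 0.935 for Nqo1 with Gsta2, from 0.37 to 0.793 for Nqo1 with Gstm3, from 0.744 to 0.93 for the macrophage score with Hmox1, from 0.151 to 0.95 for the lipogenesis score with G6pdx and from 0.102 to 0.93 for the same score with Pgd. For the macrophage score with G6pdx, r ranged from 0.32 to 0.731. The cause of these shifts was not tested, and fewer samples are part of each left-out fit.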
